A study of Mus musculus with 4 samples.

Results

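The 10 alpha and beta tubulin genes Tuba1a, Tuba1b, Tuba1c, Tubb2a, Tubb2b, Tubb3, Tubb4a, Tubb4b, Tubb5 and Tubb6 were followed in the RNA of basal radial glia. They were taken by gene symbol from the 45706 Ensembl genes of the count table, and all 10 were found, 3 of them alpha and 7 beta. The cells came from the medial neocortex of C57BL/6JOlaHsd mouse embryos at E18.5 and were profiled as 4 replicate libraries of a single group. Every library carries the genotype Tubb-GFP/+, a tubulin reporter, and has the lipophilic dye DiI in its title. The labels do not say which Tubb gene the reporter uses, how reporter and dye selected the cells, or whether the libraries came from separate animals. All p-values therefore measure the spread between these libraries, which may be technical, and no library without the reporter was used here.

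Microtubules are built from dimers of an alpha and a beta tubulin, and mammals carry several genes, called isotypes, for each. The proteins are nearly alike over most of their length and differ mainly in the acidic tail at the C terminus, where motors, associated proteins and modifying enzymes act. Tuba1a, Tubb2a, Tubb2b, Tubb3 and Tubb4a are enriched in the nervous system and are here called neuron-enriched. Tubb3 is the classical marker of young neurons, and Tubb2b is also known from radial glia. Tuba1b, Tuba1c, Tubb4b, Tubb5 and Tubb6 are used by many tissues and are here called general.

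The ends of the coding sequences show how near some beta isotypes are to each other, which bears on the levels given below. The last 60 bases of the reading frame, stop codon included, are written 5′ to 3′ on the coding strand from the GENCODE M21 transcripts (GRCm38). Capitals mark bases that differ from, or face a gap in, the partner named in brackets when the whole coding sequences are aligned.
Tubb2b (partner Tubb2a): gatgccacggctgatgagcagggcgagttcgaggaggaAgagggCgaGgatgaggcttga
Tubb2a (partner Tubb2b): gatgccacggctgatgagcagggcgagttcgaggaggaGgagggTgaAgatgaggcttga
Tubb3 (partner Tubb5): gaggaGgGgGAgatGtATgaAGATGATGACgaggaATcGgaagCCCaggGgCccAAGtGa
Tubb5 (partner Tubb3): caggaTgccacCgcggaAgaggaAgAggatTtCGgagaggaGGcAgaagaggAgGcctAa

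Tubb2a and Tubb2b differ at 3 of the 60 bases and share 96.5% of their coding bases, with an identical run of 551 bases. Tubb3 and Tubb5 share 81.4%, and their longest identical run is 26 bases. Among the alpha genes, Tuba1a and Tuba1b share 98.3% of their coding bases. Reads from the near-identical genes can be split among them or lost, depending on how the authors' counter treated them, on which the sources used here say nothing. Of the words of 75 bases in the longest Tuba1b transcript, 24.0% occurred in no transcript of another gene, against 43.7% for Tuba1a, 43.3% for Tuba1c, 56.8% for Tubb2a, 67.8% for Tubb2b and 62.2% for Tubb4b. For Tubb3, Tubb4a, Tubb5 and Tubb6 the share was 100%. Single values of Tuba1a, Tuba1b, Tuba1c, Tubb2a, Tubb2b and Tubb4b are thus uncertain. Levels that divide by these unique words are given further on beside the main ones.

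The start of the reading frame separates the alpha from the beta genes shown, but not the neuron-enriched from the general isotypes. Its first 12 bases, 4 codons, encode the stretch that the ribosome-associated factor TTC5 reads on the emerging chain when free tubulin lowers the stability of tubulin mRNA. All 3 alpha genes begin with the same letters.
Tuba1a, Tuba1b and Tuba1c: atgcgtgagtgc
Tubb3 and Tubb4b: atgagggagatc
Tubb5: atgagggaaatc
Tubb2b: atgcgagagatc
Tubb2a: atgcgcgagatc
Tubb4a: atgcgggaaatc
The 6 beta genes shown use 5 spellings of this stretch, and the start of Tubb6 is not reported here.

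Library totals ran from 26540656 to 34837657 counts, with 23128 to 23900 genes having a count. Replicate 4 stood apart somewhat: the chi-square per degree of freedom of its counts against another library was 20.1 to 26.4, against 9.84 to 13.9 between the others. Levels are TPM, counts divided by gene length and scaled to a common total in each library, computed from the deposited counts and the merged exon length of each gene. The labelled cell type was set against marker lists. All 8 radial glia markers were above 1 TPM (edgeR, adjusted p below 0.05), a level that 65.9% of the 20991 genes tested also passed, and their summed level was 4737 to 5727 TPM. All 8 neuron markers were above 1 TPM too, at 3239 to 3544 TPM in sum, as were all 5 intermediate progenitor markers, at 1024 to 1135 TPM. Fabp7, at a mean of 4631 TPM, made up most of the radial glia sum, while the stem cell factors Sox2 and Pax6 were at 30.1 and 21.1 TPM. Neurod6, a gene of cortical projection neurons, led the neuron list at 1791 TPM, and Dcx, a marker of migrating neurons, was at 159 TPM. The 5 microglia markers summed to 15.7 to 35.9 TPM and the 5 erythroid markers to 2374 to 4198 TPM. None of the radial glia, neuron or progenitor markers was at 0, and of 4 endothelial markers none was above 1 TPM. Neuron markers thus accompany the tubulin levels in every library, and their part in them was not tested. In bulk libraries, fewer cells of a type and less RNA per cell cannot be told apart.

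Tubulin RNA was abundant and was led by the neuron-enriched isotypes. The 10 genes together made up 3.26 ± 0.11% of all TPM (SD, n = 4), or 2.15 ± 0.11% of all counts. The value depended on the length used, at 5.01% with the coding sequence as length and 5.61% to 7.05% with unique words. In these cases only the 10 members were divided by the other length, while the total kept the merged exons of all genes. Such values are therefore raised by the shorter lengths and are not shares of a common total. Every member passed the low-count filter. Each was above 1 TPM by a one-sample quasi-likelihood test built on the edgeR fit, against the same 65.9% of all genes. Against 100 TPM, 8 of the 10 were above, where 7.25% of all genes were, and 2, Tubb6 and Tuba1c, were below, as were 91.4% of all genes. The median of the members' mean levels was 792 TPM, against 4.79 TPM over all genes tested. The genes were picked with earlier results of these data known, and nothing particular to them is read from this median.

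**Figure D1:**
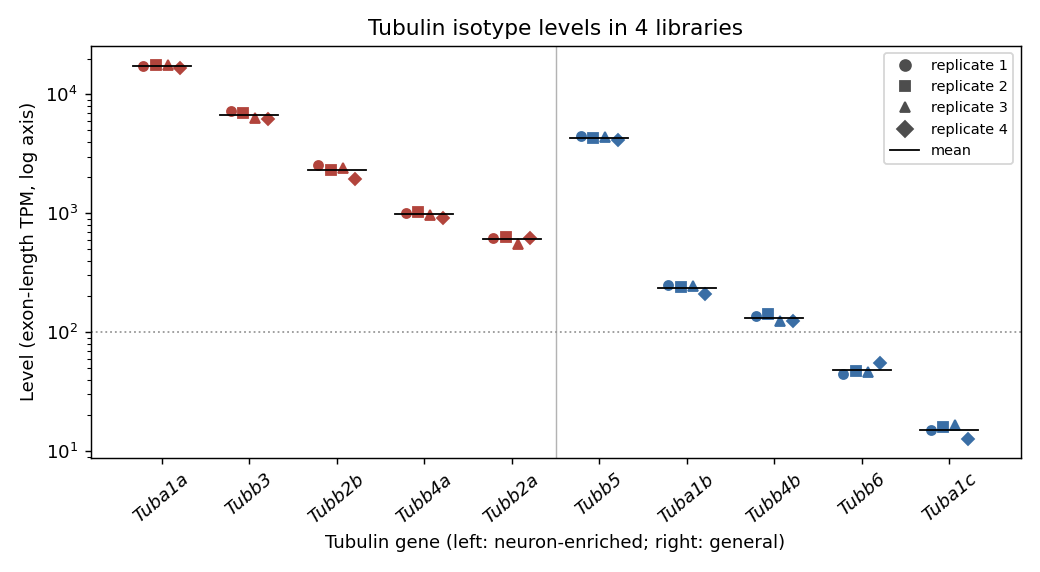
Level of each tubulin gene (exon-length TPM, log axis) in the 4 libraries, with a symbol for each replicate and a line for the mean; neuron-enriched genes in red on the left, general genes in blue on the right. The dotted line marks 100 TPM: 8 genes lie above it in all 4 libraries, from Tuba1a at 16756 to 17781 TPM to Tubb4b at 123 to 142 TPM, while Tubb6 and Tuba1c lie below it.

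Among the alpha genes, Tuba1a was nearly alone. Tuba1a (ENSMUSG00000072235; GRCm38 chromosome 15, 98949837 to 98953703, minus strand), the main alpha tubulin of young neurons and a gene of human lissencephaly, was at 17218, 17501, 17781 and 16756 TPM in replicates 1 to 4. The 4 libraries lie close together, with a coefficient of variation of 2.52%, and no protein-coding gene had a higher mean level. Tuba1b (ENSMUSG00000023004; chromosome 15, 98931425 to 98934565, minus strand), the general alpha tubulin of dividing cells, was at 247, 242, 243 and 210 TPM. Replicate 4 is the lowest for both genes. Tuba1c (ENSMUSG00000043091; chromosome 15, 99029891 to 99038110, plus strand), a minor general alpha isotype, was at 15.0, 15.9, 16.7 and 12.7 TPM, on 239 to 410 counts. The exact Poisson 95% intervals of its libraries together spanned 11.1 to 18.6 TPM, and they cover counting error only.

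Tuba1a made up 98.6 ± 0.080% of the alpha total (SD, n = 4), Tuba1b 1.34 ± 0.074% and Tuba1c 0.0858 ± 0.0079%. Tuba1a exceeded Tuba1b by 6.20 ± 0.083 on the log2 scale of TPM (SD, n = 4), a 73.7-fold ratio, in 4 of 4 libraries. The exact two-sided sign-flip permutation test gave p = 0.125, the smallest that 4 libraries allow, so no ratio here can pass 0.05. With the unique words of 50, 75 or 100 bases as length, the log2 ratio was 5.09, 5.23 or 5.40. GENCODE M21 also places exons of the gene Gm49450 over 26.2% of the exonic bases of Tuba1a and 22.7% of those of Tuba1b on the same strand. No count for Gm49450 was found here. Another gene lies over 4.64% of Tuba1b on the opposite strand.

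The beta pool was mixed, with Tubb3 and Tubb5 in the lead. Tubb3 (ENSMUSG00000062380; chromosome 8, 123411424 to 123422015, plus strand), the neuronal class III beta tubulin, was at 7221, 7007, 6273 and 6263 TPM. Replicates 1 and 2 were above replicates 3 and 4. Of the 8 neuron markers, Gap43, a growth cone protein, Rbfox3, a nuclear protein of maturing neurons, and Nefl, a neurofilament subunit, showed the same split, and the other 5 did not. Rbfox3 was at 16.2, 15.4, 11.9 and 11.2 TPM in replicates 1 to 4, whereas Neurod6, which holds most of the summed level, was at 1787, 1734, 1751 and 1891 TPM. Outside the neuron list, the radial glia markers Vim and Nes and the intermediate progenitor marker Gadd45g showed this split too. The other markers of those lists did not. Among the isotypes, Tubb2a, Tubb4a and the general Tubb4b showed it as well. The share of all genes with this split was not counted, so nothing particular to these genes is read from it. All these genes were picked out after their values were seen, and their part in the Tubb3 level was not tested. Tubb5 (ENSMUSG00000001525; chromosome 17, 35833921 to 35838306, minus strand), the general class I beta tubulin of proliferating cells, was at 4461, 4259, 4407 and 4138 TPM. Its 4 values stayed below every Tubb3 value on this scale.

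Tubb2b (ENSMUSG00000045136; chromosome 13, 34126748 to 34130466, minus strand), which is mutated in human polymicrogyria, was at 2546, 2317, 2421 and 1939 TPM. Its lowest value came from replicate 4, and its coefficient of variation, 11.4%, was the second highest of the family after Tuba1c at 11.6%. Its neighbour Tubb2a (ENSMUSG00000058672; chromosome 13, 34074274 to 34078007, minus strand), a neuron-enriched isotype prominent in the mature brain, was at 625, 631, 550 and 617 TPM. Tubb2b exceeded Tubb2a 3.79-fold, a log2 ratio of 1.92 ± 0.21 (SD, n = 4), in 4 of 4 libraries, with p = 0.125 in the exact permutation test of signs. With unique words as length the log2 ratio was 1.72 (50 bases), 1.72 (75 bases) or 1.77 (100 bases).

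Tubb4a (ENSMUSG00000062591; chromosome 17, 57080066 to 57087782, minus strand), a brain isotype found in neurons and oligodendrocytes, was at 1004, 1029, 974 and 910 TPM. The 4 oligodendrocyte precursor markers summed to 37.9 to 45.2 TPM in these libraries. Tubb4b (ENSMUSG00000036752), a general isotype also used in cilia, was at 136, 142, 124 and 123 TPM, above 100 TPM by 0.39 on the log2 scale (edgeR quasi-likelihood test, adjusted p = 5.11e-05). Tubb6 (ENSMUSG00000001473), a general class V isotype best known outside the nervous system, was at 44.6, 47.4, 46.2 and 55.3 TPM. Replicate 4 was the highest for Tubb6 and the lowest for Tubb3, Tubb4a, Tubb4b, Tubb5 and Tubb2b. Exons of a gene on the opposite strand cover 5.80% of the exonic bases of Tubb4b.

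**Figure D2:**
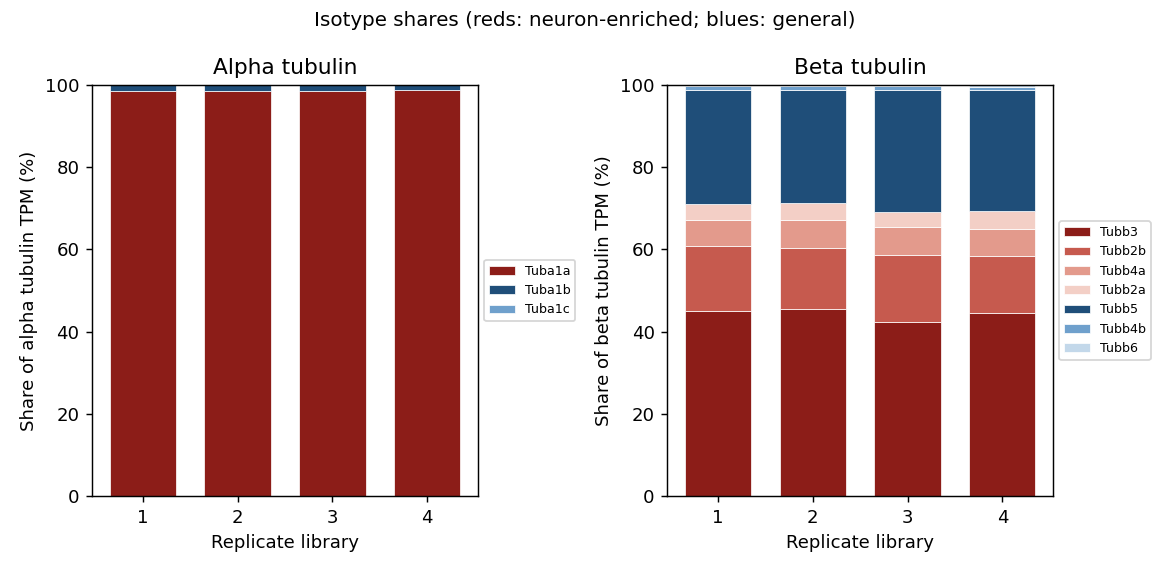
Share of each isotype in the summed alpha (left) and beta (right) tubulin TPM of each replicate library, as stacked bars; reds are neuron-enriched and blues general isotypes. Tuba1a fills 98.5% to 98.7% of the alpha bars, and the neuron-enriched genes together fill 69.1% to 71.2% of the beta bars.

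The neuron-enriched isotypes held most of the tubulin total in every library. Their share was 85.4%, 85.8%, 85.3% and 85.4% in replicates 1 to 4, or 85.5 ± 0.25% (SD, n = 4), and their summed level was 27896 ± 977 TPM, against 4746 ± 161 TPM for the general isotypes. The ratio was 2.56 ± 0.029 on the log2 scale (exact sign-flip permutation p = 0.125; neuron-enriched higher in 4 of 4 libraries). Within the beta pool the neuron-enriched share was lower, at 70.1 ± 1.13%. Tubb3 gave 44.4 ± 1.35% of the beta total, Tubb5 28.7 ± 1.12%, Tubb2b 15.3 ± 1.12%, Tubb4a 6.50 ± 0.18%, Tubb2a 4.02 ± 0.29%, Tubb4b 0.870 ± 0.037% and Tubb6 0.323 ± 0.050%.

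The beta share depended on the gene length, on Tubb3 and on the class given to Tubb2b. It was 65.4% with the longest transcript, 58.6% without length correction and 58.4% with the coding sequence. With the gene span it was 48.1%, below an even share. Unique words of 50, 75 or 100 bases gave 68.9%, 68.3% or 67.9%. The merged exons thus gave the highest share of these lengths. With Tubb3 left out of the pool, the remaining neuron-enriched beta genes held 46.3 ± 1.30% of what was left, and with Tubb2b counted as general the share was 54.9 ± 1.51%. With Tubb2a counted as general it was 66.1 ± 1.18%. The share of the whole tubulin total was 78.4 ± 0.67% with Tubb2b as general, and 70.1 ± 1.13% when Tuba1a and Tuba1b were left out. That exclusion leaves Tuba1c as the only alpha gene, so its value nearly repeats the beta share. Tuba1a alone held 53.1 ± 1.30% of the tubulin total, so the share rests largely on its class, which was not varied.

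In order of mean level the genes ran Tuba1a, Tubb3, Tubb5, Tubb2b, Tubb4a, Tubb2a, Tuba1b, Tubb4b, Tubb6 and Tuba1c. The first was 1146-fold above the last. The 4 values of each gene lay above those of its lower neighbour in all 9 neighbouring pairs, and each mean log2 ratio was larger than its SD. The closest neighbours were Tubb3 and Tubb5, at 0.63 ± 0.096 on the log2 scale (SD, n = 4), and Tubb4a and Tubb2a, at 0.69 ± 0.11. Each pair gave the exact sign-flip permutation p of 0.125. The order comes from the same values and is a description.

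**Figure D3:**
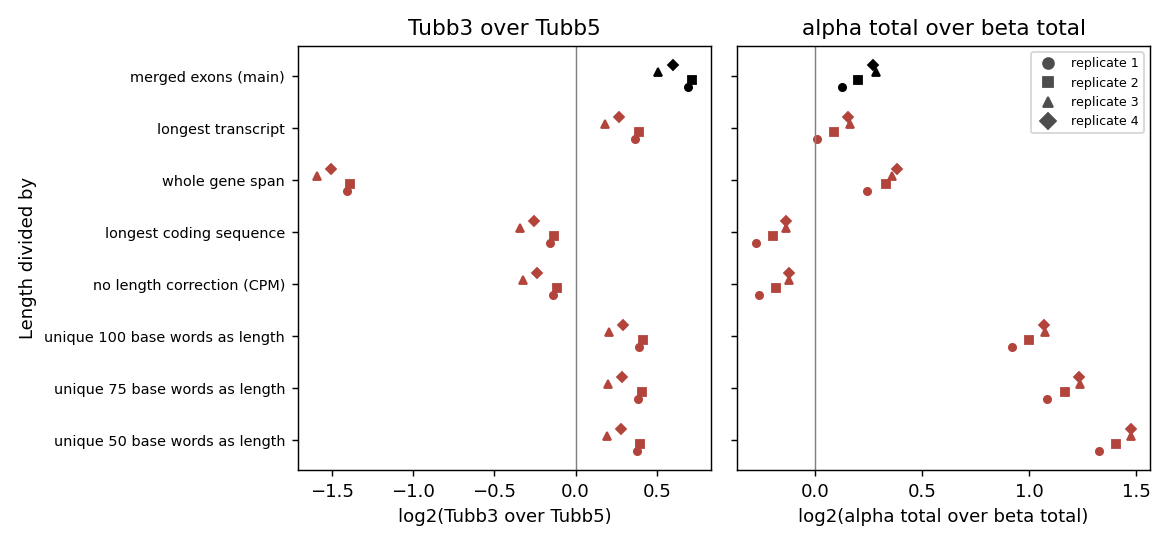
Log2 ratio of Tubb3 over Tubb5 (left) and of summed alpha over summed beta tubulin (right) in the 4 libraries, for each length by which counts were divided; black marks the merged exon length, symbols the replicates. Points right of the line at 0 mean more Tubb3 or more alpha: the mean of Tubb3 over Tubb5 runs from -1.47 (gene span) to 0.63 (merged exons), and that of alpha over beta from -0.19 (coding sequence) to 1.42 (unique words of 50 bases).

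Which beta isotype led depended on the gene length used. Tubb3 exceeded Tubb5 by 0.63 on the log2 scale with merged exons and by 0.30 with the longest transcript, and by 0.31 to 0.33 with unique words. It was below Tubb5 by -0.20 without length correction (CPM), by -0.22 with the coding sequence and by -1.47 with the gene span. The merged exons of Tubb5 hold 3327 bases against 2649 in its longest transcript, and some of its annotated transcripts retain an intron, whereas both lengths are 1868 bases for Tubb3. The other general genes, Tuba1b, Tuba1c, Tubb4b and Tubb6, also have merged exons longer than the longest transcript. Among the neuron-enriched genes only Tubb2b does. The gene span, introns included, is 10592 bases for Tubb3 and 4386 for Tubb5. Within each of these scales the 4 libraries gave the same sign.

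Summed alpha and summed beta levels were close on the main scale. The alpha total was 17480, 17758, 18040 and 16979 TPM and the beta total 16037, 15433, 14795 and 14045 TPM in replicates 1 to 4. Alpha was higher in 4 of 4 libraries, with a log2 ratio of 0.22 ± 0.075 (SD, n = 4) and p = 0.125 in the exact permutation test of signs. The sign turned without length correction (-0.17) and with the coding sequence (-0.19), and the ratio was 1.02 to 1.42 with unique words as length.

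**Figure D4:**
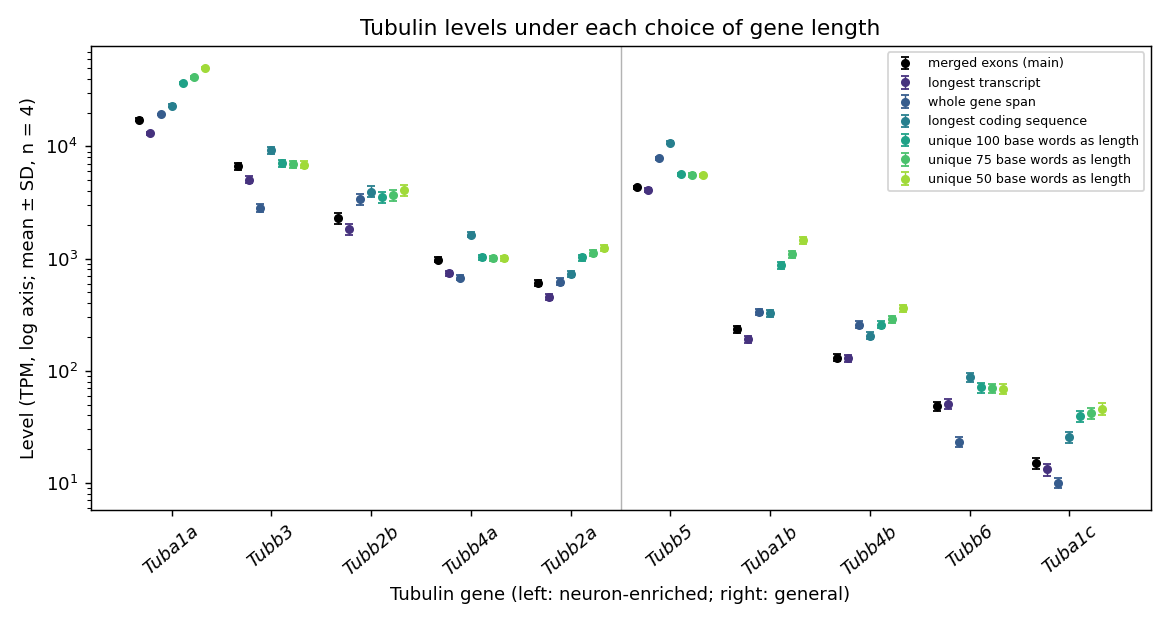
Level of each tubulin gene (TPM, log axis; mean and SD over 4 libraries) for each length by which counts were divided, neuron-enriched genes on the left and general genes on the right. With unique words of 75 bases Tuba1b reaches 1101 TPM and Tubb3 6967 TPM, against 235 and 6691 TPM with merged exons. Tuba1a stays the highest gene under every length shown. For the coding sequence and unique words only the tubulins were divided by the other length, and the scaling total kept the merged exons.

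Division by the unique words of 75 bases gave 41292 ± 1043 TPM for Tuba1a (SD, n = 4), 1101 ± 79.9 TPM for Tuba1b and 41.8 ± 4.85 TPM for Tuba1c. It gave 3699 ± 420 TPM for Tubb2b, 1118 ± 68.9 TPM for Tubb2a and 289 ± 20.2 TPM for Tubb4b. The scaling total kept the merged exons of all genes, so the rise of these values over the main ones comes from the shorter length alone. On this scale Tuba1b lay above Tubb4a, at 1013 ± 53.2 TPM, and near Tubb2a. With the gene span Tubb2b, at 3396 ± 375 TPM, lay above Tubb3, at 2819 ± 221 TPM.

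The members differed in how much they varied between libraries. Their coefficients of variation ran from 2.52% (Tuba1a) to 11.6% (Tuba1c) with a median of 7.13%, against a median of 6.12% for the 1654 genes with a mean of at least 100 TPM. Tuba1c and Tubb6, at 9.85%, lie below that level, so the sets are not matched in level.

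Other members of the tubulin superfamily were far below Tuba1a, Tubb3 and Tubb5. They overlapped the lower members in level, as Tubg1 lay above Tubb4b (131 TPM) and Tubg2 above Tuba1c (15.1 TPM). Of 10 further genes, 5 were above 1 TPM, as 65.9% of all genes tested were, none was below, where 12.1% of all genes were, 2 were not called and 3 had too few counts. Tubg1, the gamma tubulin that nucleates microtubules at the centrosome, was at 138 ± 8.92 TPM (SD, n = 4), its brain-enriched paralog Tubg2 at 26.1 ± 1.94 TPM, and Tuba4a, an alpha isotype whose gene does not encode the C-terminal tyrosine, at 15.2 ± 1.33 TPM. Tuba8, picked out after its values were seen, had 4, 22, 25 and 49 counts in replicates 1 to 4, the widest relative spread in the superfamily among genes with counts in every library, and was not called against 1 TPM (edgeR adjusted p = 0.600). No count was found for Tubb1, the platelet isotype, or Tubal3.

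Genes that fold tubulin were expressed throughout. New tubulin chains pass from prefoldin to the CCT chaperonin and then to the cofactors that assemble the dimer. All 8 CCT subunits were above 100 TPM, where 7.25% of all genes tested were, led by Cct5 at 1486 ± 11.9 TPM, Cct8 at 639 ± 27.4 TPM and Cct2 at 639 ± 30.1 TPM. All 6 prefoldin subunits were above 100 TPM as well, among them Pfdn5 at 675 ± 18.2, Pfdn1 at 373 ± 21.5 and Pfdn6 at 330 ± 35.04 TPM. All 7 cofactor genes were above 1 TPM, against 65.9% of all genes, and 2 above 100 TPM, Tbca, which binds beta tubulin, at 769 ± 47.3 TPM and Tbcb, which binds alpha tubulin, at 636 ± 43.7 TPM. Arl2, the small GTPase that works with cofactor D, was at 53.2 ± 4.56 TPM. CCT and prefoldin also fold actin and other proteins.

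Enzymes that act on tubulin after assembly ranged widely in level. Of 20 genes for enzymes of the tubulin tail, 12 were above 1 TPM and 6 below, where 65.9% of all genes tested were above and 12.1% below. The count above is near the share of all genes. Another gene was not called and 1 had too few counts. Svbp, the partner of the vasohibins that remove the terminal tyrosine of alpha tubulin, was at 325 ± 0.86 TPM (SD, n = 4). Ttll1, a polyglutamylase subunit, was at 199 ± 11.8 TPM. Vash2, a vasohibin, was at 63.6, 64.6, 42.8 and 37.4 TPM, higher in replicates 1 and 2 than in 3 and 4, the same split as Tubb3. Several other listed genes, Ttll1, Atat1, Tbcb and Pfdn6 among them, showed this split too. It was looked for after the values were seen. How many of all genes show it was not counted, so no link to Tubb3 is read from it. Below 1 TPM lay Ttll6, another polyglutamylase, at 0.0768 TPM, the glycylase gene Ttll8 at 0.0904 TPM and the deglutamylase gene Agbl4 at 0.253 TPM. Atat1, the alpha tubulin acetyltransferase, was at 434 ± 22.4 TPM, and the deacetylase genes Sirt2 and Hdac6 were at 98.7 ± 10.5 and 39.4 ± 4.05 TPM.

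All 4 genes of the tubulin mRNA autoregulation list were above 1 TPM, a level passed by 65.9% of all genes tested. Ttc5, whose product reads the first codons printed above, was at 124 ± 3.53 TPM (SD, n = 4), Scaper, its adaptor, at 34.7 ± 1.74 TPM, and Cnot1, the scaffold of the deadenylase complex, at 19.8 ± 3.21 TPM.

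**Figure D5:**
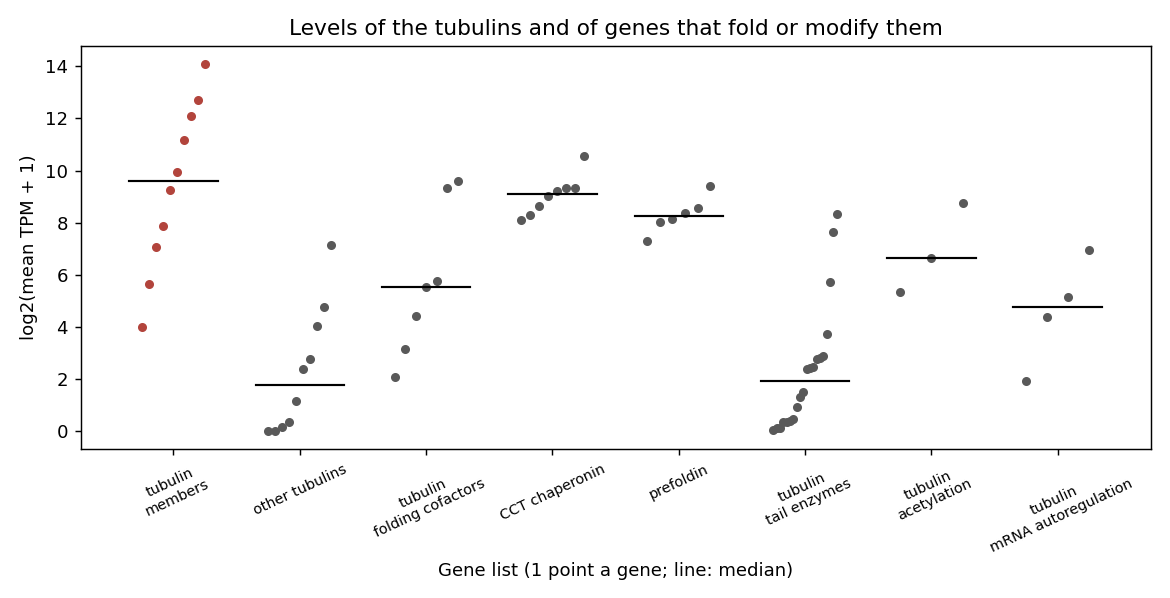
Mean level, as log2(TPM + 1), of the 10 tubulin genes (red) and of the lists of related genes (grey), with a point for each gene and a line at each list's median. The CCT chaperonin and prefoldin points all lie above 100 TPM, while the tail enzyme and other tubulin lists reach down to or near 0.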

How the data were processed

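Per the labels' protocols, RNA was turned into full-length cDNA by poly-dT priming with template switching, and the amplified cDNA was sheared for Illumina libraries. Per the submitters' processing notes, bcl2fastq 2.19.1, STAR 2.5.2b and the build GRCm38 were used. For the counter, its strand setting, the annotation release and the read length nothing is stated in those sources. The authors deposited raw counts, whole read numbers for each Ensembl gene with no normalisation. The deposited TPM table holds 15648 genes and 9 of the 10 members, without Tubb3. For 95.3% of 9848 genes its values followed, within 0.01 on the log2 scale, the whole gene span, so the authors' TPM was not used for levels.

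TPM was recomputed from the counts with merged exon lengths of GENCODE M21 (45143 of 45706 identifiers matched; the rest held 0.120% to 0.125% of counts). Genes with 10 or more counts summed over the libraries were compared with 1 and with 100 TPM in edgeR 4.0.16 (R 4.3.3), two-sided. The quasi-likelihood F statistic compared the fitted mean with the count expected at that level, with Benjamini-Hochberg adjustment over 20991 genes and a threshold of 0.05. It was formed from the edgeR fit, since edgeR's own test function does not take a single-group design. Each p-value was the larger of that from F and that from a Poisson likelihood-ratio test. The test was also run on counts simulated around 1 TPM, which says nothing of how it behaves at 100 TPM. Ratios used an exact sign-flip permutation test. Alternatives were DESeq2 1.42.0, TMM scaling, no filter, other gene lengths, other classes and leaving out each library. Identities came from Biopython 1.88 alignments, and word searches covered both strands of all GENCODE M21 transcripts, leaving out genes whose exons overlap the member's. Support lists name the 3 highest genes called above 1 TPM and up to 3 below it. Members, classes and lists were chosen with earlier results of these data known. The coding ends of the alpha genes are not reported here.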

Additional observations from a re-analysis of the deposited data

Results flagged for a closer look

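Of 49 values examined over the 4 libraries, 3 had a library far from the others by Dixon's ratio at the 95% level, and chance flags about 1 group in 20. Tuba1b was lowest in replicate 4, at 210.1 TPM, with the others between 242 and 247 TPM. Tubb2a was lowest in replicate 3, at 550.3 TPM, with the others between 617 and 631 TPM. The 5 erythroid markers, globins among them, summed to 4198 TPM in replicate 2, against 2374 to 2682 TPM in the others. The neuron-enriched share of the tubulin total in replicate 2 was 85.8%, against 85.3% to 85.4% in the others, and 85.3% on average without that library.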

How the results depend on the processing

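The counts of members above 1 TPM (10) and above 100 TPM (8) were the same under every alternative run: TMM, DESeq2, no filter, longest transcript, gene span and each library left out. Genes below 1 TPM numbered 2532 in all, 6564 without the filter, 5141 with the gene span, and 1525 to 1707 with a library left out. With the gene span, the neuron-enriched share of the beta total was 48.1%, under an even share, and log2 Tubb3 over Tubb5 was -1.47. Without length correction Tubb3 over Tubb5 was -0.20 and alpha over beta -0.17; with the coding sequence they were -0.22 and -0.19. Without Tubb3 the beta share was 46.3%. The tubulin share of all TPM was 2.57% with the longest transcript, 3.52% with the gene span, 2.15% by counts and 3.62% over protein-coding genes alone. With the length changed for the members only, the value was 5.01% with the coding sequence. With unique words of 50, 75 and 100 bases, also changed for the members only, it was 7.05%, 6.12% and 5.61%. The neuron-enriched share of the tubulin total lay between 76.0% (gene span) and 89.4% (unique words of 50 bases), and that of the alpha total between 97.1% and 98.5% under the other lengths. Leaving out a library gave 85.3% to 85.5% for the tubulin total, 69.8% to 70.5% for beta, 98.5% to 98.6% for alpha, and 3.24% to 3.32% of all TPM. The unique words, the exclusions of single genes and the protein-coding total were chosen after seeing the data. Words counted in the genome were not run, since no genome was used here. No paired analysis was possible because the libraries form a single group.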

Other observations

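In the deposited TPM table, which divides by the gene span, Tuba1a was at 29549 ± 788 TPM (SD, n = 4), Tubb5 at 11500 ± 389 TPM, Tubb2b at 4996 ± 567 TPM and Tuba1b at 494 ± 36.0 TPM. Tubb3 has no value there, so Tubb3 and Tubb5 cannot be compared on it. Tubb4a and Tubb2a were near each other there, at 993 ± 52.6 and 917 ± 55.7 TPM. On the merged exon scale the same genes were at 979 ± 51.4 and 606 ± 37.3 TPM. Recomputed here with the gene span over all matched genes, they were at 675 ± 35.6 and 624 ± 43.6 TPM. The deposited values thus lie on another scaling total, and levels cannot be compared directly between the deposited and recomputed scales. With unique words of 50 or 75 bases as length Tubb2a passed Tubb4a, and with 50 bases Tuba1b passed Tubb2a.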
